A study of Homo sapiens with 8 samples.

Results

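The 64 measured genes of the matrix metalloproteases (MMP), the ADAM and ADAMTS proteases and their inhibitors, the TIMPs, were followed in MDA-MB-231 cells with and without TGFβ. They are the genes whose platform symbol is MMP, ADAM, ADAMTS or TIMP followed by a number and which at least 1 probe set names alone. They make up 64 of the 19777 genes measured, with 22 MMPs, 20 ADAMs, 18 ADAMTS genes and 4 TIMPs, read by 145 probe sets. MDA-MB-231 is an established line from a metastatic breast cancer that carries a mutant p53. All 8 arrays came from cells that stably carry a retroviral hairpin RNA against GFP, a sequence that human cells lack, and that had been without serum for 24 h. In 4 arrays the cells were untreated, and in 4 they had received TGFβ, labelled as 5 µg/ml for 3 h. That dose is given as the labels write it, and its unit could not be checked. Each group holds biological replicates lettered A to D, and the labels do not say how the cultures were kept apart, so the p-values reflect only how far these arrays vary. Cells depleted of p53 were not analysed here.

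These enzymes are zinc proteases. MMPs cut collagens, gelatin, proteoglycans and other matrix proteins, and most are made as inactive precursors that other proteases activate. ADAMs sit in the membrane, where those with an active site release the outer parts of growth factors, receptors and adhesion proteins. ADAMTS enzymes are secreted and cut proteoglycans, procollagens and other matrix proteins, and the TIMPs block members of each of these families. In breast cancer they are studied for their part in invasion, and TGFβ is a known regulator of several of them.

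Signals are log2 values made by the authors with RMA, in which 1 unit is a doubling. The value of a gene is that of its probe set with the highest mean. Signals of different probe sets cannot be ranked against each other, because probes differ in how well they bind. RMA gives no detection calls, so a dim probe set may read little but background. Array medians lay between 4.62 and 4.66. The cells' labelled identity was checked against 5 genes that the line is known to express (VIM, CD44, CAV1, AXL and MSN), and their mean signal lay between 11.29 and 11.76 in untreated and between 11.35 and 11.77 in treated arrays. Of 6 genes known to be low in it, the progesterone receptor gene PGR and the E-cadherin gene CDH1 stood at percentiles 14.2 and 33.3 of all signals. The other 4, the oestrogen receptor gene ESR1, ERBB2, GATA3 and EPCAM, stood at 49.9, 65.7, 69.5 and 80.6. These 4 lay in the upper 60% of signals, so their absence was not seen. Of the 16 measured markers of fibroblasts, leukocytes and endothelium, 0 changed in the test without the letters, 2 had an unadjusted p under 0.05 and, with the letter as a block, the endothelial gene PECAM1 fell by 0.43. The summed levels of these lists overlapped between the groups, with means of 4.23 to 4.53 against 4.42 to 4.51 for fibroblast markers, 4.40 to 4.61 against 4.48 to 4.69 for leukocyte markers and 4.76 to 4.91 against 4.67 to 4.90 for endothelial markers. Treated array A had a larger excess of 3′ over 5′ signal than the rest, 0.54 for GAPDH against 0.06 to 0.14 and 1.68 for ACTB against 0.63 to 0.89. In bulk RNA such as this, fewer cells of a type and less RNA per cell cannot be told apart.

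For most MMP, ADAM, ADAMTS and TIMP genes no change was detected after 3 h of TGFβ. The membrane protease gene ADAM19 rose 2.46-fold in its brighter probe set, and no change was detected in the other. That call held in 2 of 8 fits that leave out 1 array. A fit with the replicate letter as a block compares arrays of the same letter. The labels state no such pairing, and the values do not tell C from D. In that fit the secreted protease genes ADAMTS6 and ADAMTS16 also rose, by 2.07-fold and 1.46-fold, and ADAMTS9 fell by 1.40-fold. The ADAMTS9 call held in 1 of 4 block fits without 1 letter. It was lost when adjusted over all probe sets, where ADAMTS9 probe set 1554697_at passed in both fits. No MMP or TIMP passed in either fit.

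In numbers, 1 of the 64 genes rose and 0 fell at an adjusted p under 0.05 in the limma test, where 0.354% of all genes rose and 0.222% fell. An unadjusted p under 0.05 was reached by 5 genes, ADAM19, ADAMTS16, ADAMTS6, ADAMTS9 and ADAMTS4, against 8.14% of all genes. With the letter as a block 3 of 64 rose and 1 fell, against 1.39% and 2.18% of all genes. The 4 treated values lay wholly above the 4 untreated values for 2 genes, ADAM19 and ADAMTS16, and wholly below for 0, against 2.9% and 2.21% of all genes. All 4 same-letter pairs were higher with TGFβ for 8 genes and lower for 5, against 11.7% and 10.7% of all genes. The fold changes ran from -0.49 to 1.30 on the log2 scale, with 40 of 64 above 0, against 52.8% of all genes, and their median was 0.039 beside 0.0090 over all genes. A change of more than 1.5-fold was seen for 2 of 64, ADAM19 and ADAMTS6, against 1.68% of all genes. Of the 64 genes 30 lay in the upper 60% of signals and 34 in the lower 40%, and all 4 genes that passed in either fit were among the 30. Over all genes, positive differences were more common among dim ones: of the 11867 in the upper 60% of signals, 5289 were above 0. In this system 17 of the 30 and 23 of the 34 were above 0. The 52.8% of all genes is therefore not matched to the signals of this system. Over single probe sets, 0 of the 145 rose and 1 fell, against 0.256% of all probe sets in either direction, and 4 rose and 1 fell with the letter as a block, against 1.75%.

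**Figure D1:**
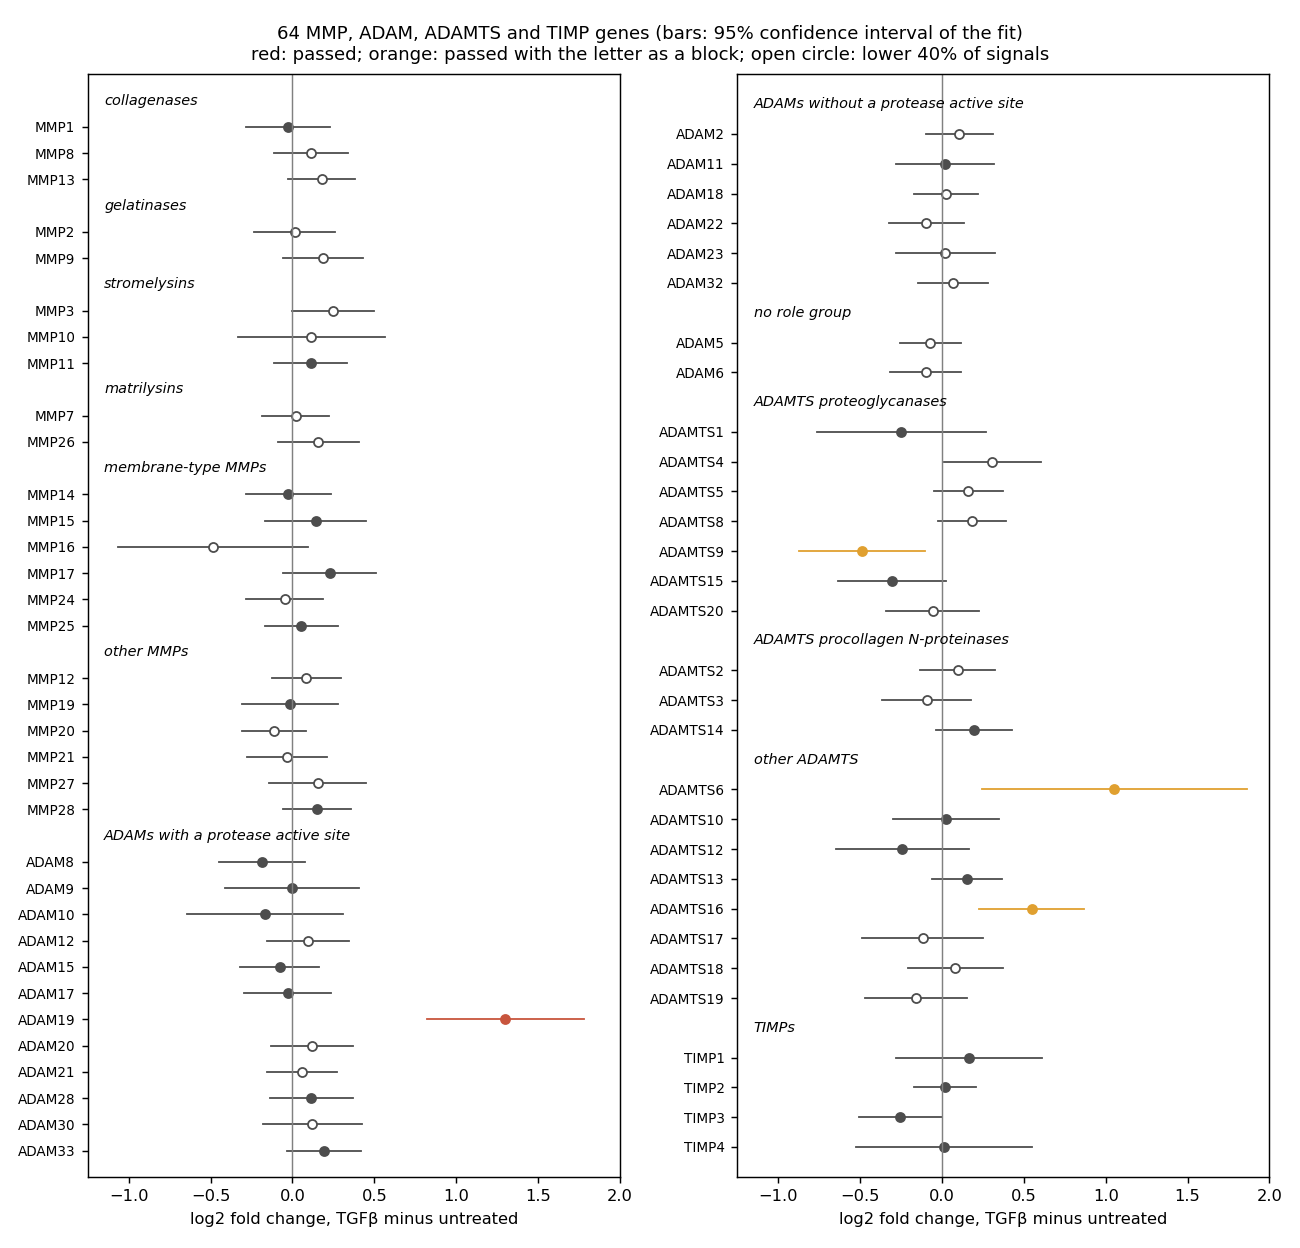
Log2 fold change, TGFβ minus untreated, of each of the 64 genes, ordered by role, with the 95% confidence interval of the limma fit without the letters (4 arrays a group). ADAM19 at 1.30 is marked in red as passed, ADAMTS6, ADAMTS16 and ADAMTS9 in orange as passed with the letter as a block, and open circles mark genes in the lower 40% of signals.

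ADAM19 encodes meltrin beta, a membrane-anchored ADAM with an active site that can release neuregulin. The gene lies on chromosome 5 (Entrez 8728) and was read by 2 probe sets. Its RefSeq promoter is shown because ADAM19 is the gene that rose in both fits. The stretch runs from 250 bases before to 50 bases after the gene's start, at chr5:157575726-157576025 on the minus strand of GRCh38.p14, with 75.7% G and C.
ADAM19: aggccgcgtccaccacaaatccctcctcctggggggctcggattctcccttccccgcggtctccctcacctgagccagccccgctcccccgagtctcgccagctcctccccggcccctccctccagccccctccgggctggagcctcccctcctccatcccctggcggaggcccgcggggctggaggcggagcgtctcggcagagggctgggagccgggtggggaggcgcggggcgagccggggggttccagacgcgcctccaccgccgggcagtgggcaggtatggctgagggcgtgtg
It was searched on both strands for the SMAD motif CAGACA, the AP-1 motif TGAGTCA, the cyclic AMP response motif TGACGTCA and the TEAD motif GGAATG, and 0 matches were found, which says only that these letters are not in this window.

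In probe set 209765_at the ADAM19 signals of untreated arrays A to D were 7.03, 8.26, 7.34 and 7.42, and those of the treated arrays were 8.70, 8.94, 8.89 and 8.73. Every treated array lay above every untreated one, and untreated B was the highest of the untreated. The means were 7.51 ± 0.53 (SD, n = 4) and 8.81 ± 0.12 (SD, n = 4). The difference was 1.30 ± 0.22 (SE) with a 95% confidence interval of 0.82 to 1.78, and its limma adjusted p was 0.0263. With the letter as a block the adjusted p was 0.00061. When p-values were adjusted over all probe sets instead of 1 per gene, this probe set had an adjusted p of 0.0508 and missed the threshold, against 0.00345 with the letter as a block. Leaving out 1 array at a time gave differences between 1.14 and 1.55 and, adjusted over genes, the call held in 2 of 8 fits, without untreated B and without treated A, with an adjusted p of up to 0.122 in the others.

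The other ADAM19 probe set, 221128_at, read 4.39, 4.06, 4.26 and 4.18 in untreated arrays A to D and 4.27, 4.13, 4.28 and 4.04 in treated ones. The groups overlapped. The difference was -0.041 ± 0.10 (SE) with an adjusted p of 0.964. The gap between both probe sets within an array was 3.29 ± 0.66 (SD, n = 4) in untreated and 4.63 ± 0.16 (SD, n = 4) in treated arrays, a difference in response of 1.34. Its exact two-sided permutation p was 0.0286, the smallest that 70 splits of the arrays allow, and 0.05 when adjusted over the 7 probe set pairs tested, which is not under the threshold. All signals of 221128_at lay below the array medians of 4.62 to 4.66, so this probe set may read little but background. The gap therefore cannot show that parts of the transcript respond differently. Where in the transcript each probe set binds was not analysed here.

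**Figure D2:**
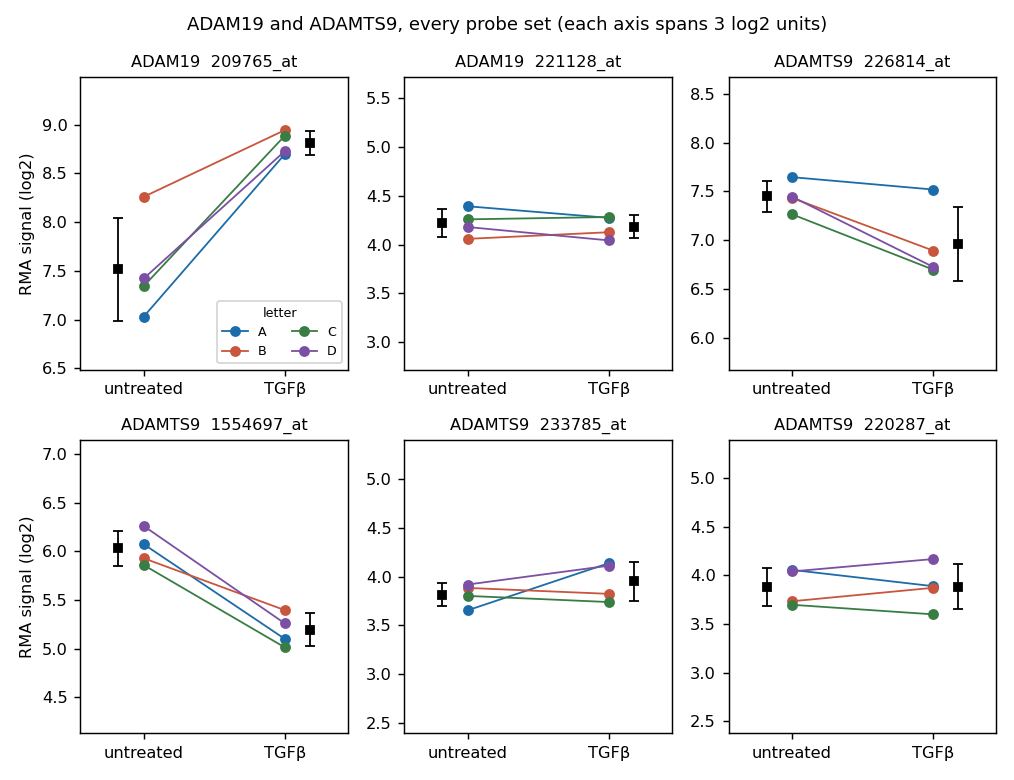
RMA signal (log2) of every probe set of ADAM19 and ADAMTS9 in the 8 arrays, with a line joining the untreated and the TGFβ array of each letter and a square with a bar for the group mean ± SD. Treated arrays lie above untreated ones for 209765_at of ADAM19 and below them for 1554697_at of ADAMTS9, while the groups overlap for 221128_at of ADAM19 and for 226814_at, 233785_at and 220287_at of ADAMTS9.

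The other 11 ADAMs with an active site showed no change past the test in either fit, and their fold changes lay between -0.19 and 0.19. ADAM10, which sheds E-cadherin and takes part in Notch activation, read 9.83, 10.45, 9.76 and 9.79 in untreated arrays A to D and 9.97, 10.30, 9.39 and 9.49 in treated ones. The groups overlapped, with B high in both, and the difference was -0.17 ± 0.22 (SE, adjusted p = 0.932). Probe set 214895_s_at of ADAM10 differed by -0.48 ± 0.20 (SE) and was lower in 4 of 4 pairs. Over all probe sets its limma adjusted p was 0.63, and 0.053 with the block. ADAM10 probe set 202604_x_at differed by -0.23 ± 0.23 (SE). ADAM17, the main sheddase of TNF and of several ligands of the epidermal growth factor receptor, read 8.90, 8.89, 8.73 and 8.65 in untreated arrays A to D and 9.04, 8.79, 8.64 and 8.56 in treated ones, and the groups overlapped. Its difference was -0.030, with an interval of -0.30 to 0.24. ADAM33, known from studies of asthma, had the smallest unadjusted p of this group after ADAM19, with a difference of 0.19 ± 0.10 (SE, adjusted p = 0.72). Among the 6 ADAMs without an active site, such as the sperm surface gene ADAM2 at 0.11 and the synaptic adhesion gene ADAM22 at -0.096, 0 passed in either limma fit and 0 had an unadjusted p under 0.05. The transcribed pseudogenes ADAM5 and ADAM6 were measured too, at -0.071 and -0.10.

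ADAMTS9 encodes a secreted protease that cuts the proteoglycans versican and aggrecan. It lies on chromosome 3 (Entrez 56999) and was read by 4 probe sets, of which 2 were lower with TGFβ. The brightest, 226814_at, read 7.65, 7.43, 7.27 and 7.45 in untreated arrays A to D and 7.52, 6.89, 6.70 and 6.73 in treated ones. Treated arrays B, C and D lay below all untreated arrays, and treated A lay among them. The difference was -0.49 ± 0.17 (SE) with an adjusted p of 0.422, and 0.0315 with the letter as a block. Adjusted over all probe sets, the block fit gave 0.0698, which misses the threshold. Treated A is the array with the 3′ excess. Without it the difference was -0.68 with an adjusted p of 0.0259, and the part of the 3′ excess in this result was not tested. Of the 4 block fits that each leave out both arrays of 1 letter, chosen after seeing the data, 1 kept ADAMTS9 under the threshold, the fit without the A arrays.

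Probe set 1554697_at of ADAMTS9 read 6.07, 5.93, 5.86 and 6.26 in untreated arrays A to D and 5.10, 5.40, 5.01 and 5.26 in treated ones. Every treated array lay below every untreated one. This is the 1 probe set of the 145 that passed without the letters, with means of 6.03 ± 0.18 and 5.19 ± 0.17 (SD, n = 4 each), a difference of -0.84 ± 0.12 (SE) and an adjusted p of 0.0252 over all probe sets. Leaving out 1 array at a time kept the difference between -0.90 and -0.76, and 2 of the 8 fits stayed under the threshold, those without treated A and without treated B, with an adjusted p of up to 0.0901 in the others.

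The remaining ADAMTS9 probe sets did not pass. Probe set 233785_at read 3.66, 3.89, 3.80 and 3.92 in untreated arrays A to D and 4.14, 3.82, 3.74 and 4.11 in treated ones, a difference of 0.14 ± 0.12 (SE, adjusted p = 0.855). Probe set 220287_at had a mean of 3.88 in both groups. All signals of 233785_at and 220287_at lay below the array medians of 4.62 to 4.66, so both may read little but background. Differences from them cannot show that parts of the transcript respond differently. The response of 1554697_at differed by -0.97 from that of 233785_at and by -0.84 from that of 220287_at, and 226814_at differed by -0.63 from 233785_at. Each had an exact two-sided permutation p of 0.0286, and 0.05 after adjustment over 7 pairs. That p is the smallest that 70 splits allow, and the pairs share probe sets. Missing the threshold therefore does not show that the responses are alike. Responses of 226814_at and 1554697_at differed by 0.35 (exact permutation p = 0.2) and overlapped between the groups.

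ADAMTS6, on chromosome 5 (Entrez 11174), encodes a secreted protease that acts on fibrillin microfibrils and their binding partners. Its RefSeq promoter is shown because it is the only other promoter available here among the 4 genes that passed in either fit, at chr5:65481871-65482170 on the minus strand of GRCh38.p14, with 52% G and C. Capitals mark the TEAD motif GGAATG, whose first base is at -200 from the start, and the cyclic AMP response motif TGACGTCA, whose first base is at -7.
ADAMTS6: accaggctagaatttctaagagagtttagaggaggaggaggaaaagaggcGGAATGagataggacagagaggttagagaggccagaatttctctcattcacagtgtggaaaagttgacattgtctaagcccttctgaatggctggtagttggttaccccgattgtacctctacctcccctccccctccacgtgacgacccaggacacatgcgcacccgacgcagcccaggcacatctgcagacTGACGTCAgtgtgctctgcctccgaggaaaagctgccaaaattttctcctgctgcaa
GGAATG is found in 14% and TGACGTCA in 1.85% of the 35116 RefSeq promoters of this length. CAGACA is found in 16.9% and TGAGTCA in 4.95%. Promoters were available for 36 of the 64 genes, and of their 37 promoters 5 held CAGACA, 1 TGAGTCA, 1 TGACGTCA and 5 GGAATG. The 1 promoter with TGAGTCA was that of MMP7. A match is a description of the letters and not a binding site.

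In probe set 237411_at the ADAMTS6 signals were 6.51, 6.93, 6.05 and 5.84 in untreated arrays A to D and 8.01, 8.16, 6.54 and 6.84 in treated ones. Letters A and B were high and C and D low in both groups, so the groups overlapped, while each treated array lay above its untreated partner. The means were 6.33 ± 0.49 and 7.39 ± 0.82 (SD, n = 4 each). The difference was 1.05 ± 0.37 (SE) with an adjusted p of 0.406, and 0.00222 with the letter as a block. The call held in 4 of 4 block fits without 1 letter, with an adjusted p of up to 0.0287. Probe set 1570351_at of ADAMTS6 differed by 1.12 ± 0.38 (SE) and also passed with the block (adjusted p = 0.00663), and 220866_at differed by 0.23 ± 0.30 (SE) and did not.

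ADAMTS16, on chromosome 5 (Entrez 170690), encodes a secreted protease known from studies of blood pressure and kidney development. Its 1 probe set, 238125_at, read 5.16, 5.21, 4.66 and 5.21 in untreated arrays A to D and 5.88, 5.54, 5.46 and 5.54 in treated ones. The groups did not overlap, and untreated C was the lowest array. The means were 5.06 ± 0.27 and 5.61 ± 0.18 (SD, n = 4 each), and the difference of 0.55 ± 0.15 (SE) had an adjusted p of 0.19, and 0.0182 with the letter as a block. The call held in 2 of the 4 block fits without 1 letter, those without A and without D.

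The other proteoglycan-cutting ADAMTS genes did not pass. ADAMTS4, an aggrecanase studied in arthritis, read 4.42, 4.71, 4.34 and 4.52 in untreated arrays A to D and 4.58, 5.08, 4.62 and 4.94 in treated ones. Each treated array lay above its partner, and the groups overlapped. The difference was 0.31 ± 0.13 (SE, adjusted p = 0.579), and 0.0924 with the block. In the block fits without 1 letter ADAMTS4 passed in 1 of 4, the fit without A (adjusted p = 0.0449). Of the 7 genes of this group, 3 had positive and 4 negative differences, from -0.49 to 0.31. ADAMTS1 and ADAMTS15, named after their values were seen, differed by -0.25 ± 0.23 and -0.31 ± 0.15 (SE), and the groups overlapped for both. The other ADAMTS15 probe set, 1553427_at, went the opposite way, by 0.23 ± 0.10 (SE), and was higher in 4 of 4 pairs. Its limma adjusted p over all probe sets was 0.671. The block fit without both A arrays called ADAMTS15 lower in its brighter probe set, and those without B, C or D did not. Of the 3 ADAMTS enzymes that trim the amino end of procollagens, 0 passed in either limma fit and 0 had an unadjusted p under 0.05. ADAMTS14 of this group differed by 0.19 ± 0.11 and ADAMTS2 by 0.10 ± 0.10 (SE).

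All 4 TIMPs lay in the upper 60% of signals. In either limma fit 0 of them passed, and 0 had an unadjusted p under 0.05. TIMP3, which binds to the matrix and inhibits ADAM17 and aggrecanases as well as MMPs, read 11.20, 11.54, 11.18 and 11.34 in untreated arrays A to D and 10.85, 11.21, 11.05 and 11.14 in treated ones. Each treated array lay below its partner, the groups overlapped, and all 4 TIMP3 probe sets had negative differences. The difference was -0.25 ± 0.12 (SE) with an adjusted p of 0.618, and 0.16 with the block. TIMP1, the inhibitor that binds the precursor of MMP9, differed by 0.17 ± 0.20 (SE), with an interval of -0.28 to 0.61 and an adjusted p of 0.921. TIMP2, which takes part with MMP14 in the activation of MMP2, read 11.41 to 11.61 in untreated and 11.44 to 11.53 in treated arrays. Its interval, -0.17 to 0.20, was the narrowest of the 4. TIMP4 read 6.72, 6.92, 7.51 and 7.32 in untreated arrays A to D and 6.70, 6.74, 7.69 and 7.40 in treated ones. Letters C and D were higher than A and B in both groups, and the difference was 0.013 ± 0.24 (SE).

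**Figure D3:**
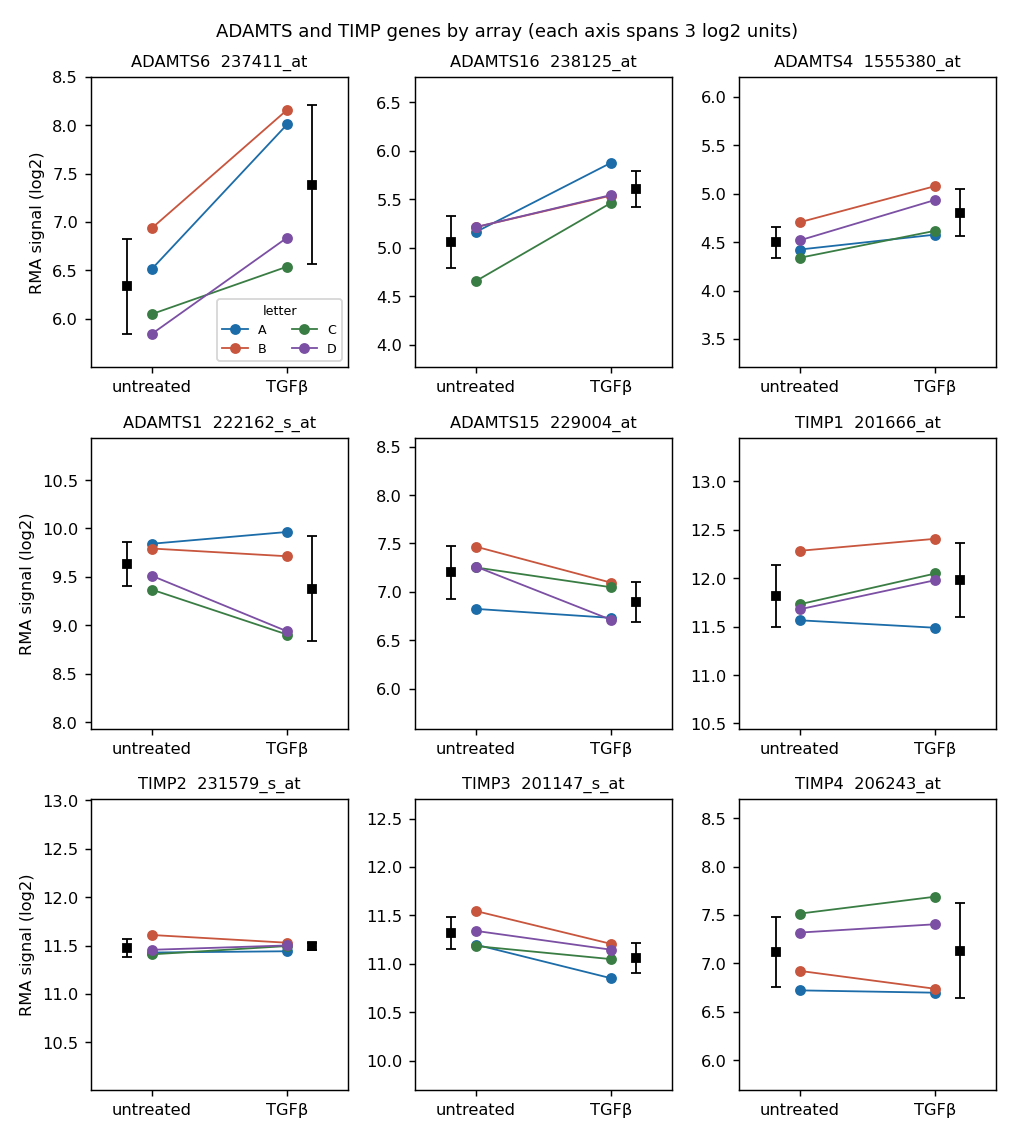
RMA signal (log2) of 5 ADAMTS genes and the 4 TIMPs in the 8 arrays, drawn as lines from untreated to TGFβ for letters A to D with group means ± SD as squares, each axis spanning 3 log2 units. Lines of ADAMTS6 go up from different starting levels (5.84 to 6.93), those of TIMP3 go down for all 4 letters while the groups overlap, and those of TIMP4 are split by letter.

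Among the 22 MMPs the limma test called 0 higher and 0 lower, with or without the letters, and 0 had an unadjusted p under 0.05. The smallest adjusted p was 0.624. Their median difference was 0.098, with 15 of 22 positive beside 52.8% of all genes, and 14 of 22 lay in the lower 40% of signals. That 52.8% is not matched for signal, and positive differences were more common among dim genes of the whole array. The collagenase gene MMP1 lay in the upper 60%, at 8.64, 8.86, 8.85 and 9.02 in untreated arrays A to D and 8.60, 8.92, 8.97 and 8.76 in treated ones. The groups overlapped, and the interval of the difference ran from -0.28 to 0.23. MMP14, the membrane-type protease that activates the precursor of MMP2, read 9.06, 8.99, 8.89 and 8.78 in untreated and 8.64, 9.10, 8.87 and 9.01 in treated arrays A to D. Its groups overlapped too, and its interval was -0.28 to 0.23. All 4 of its probe sets had negative differences, but the letters disagreed. In the A pair they differed by -0.425, -1.037, -0.38 and -1.233, and in the D pair by 0.228, 0.391, 0.284 and 0.497. Treated A is the array with the 3′ excess, whose part in these values was not tested. Without both A arrays the difference of MMP14 in the block fit was 0.11.

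The gelatinases cut denatured collagen and collagen of basement membranes. Their probe sets were dim, and MMP2 read 4.48, 4.24, 4.62 and 4.52 in untreated and 4.59, 4.29, 4.57 and 4.48 in treated arrays A to D, a difference of 0.014 ± 0.11 (SE). MMP9 read 4.35, 4.24, 4.22 and 4.02 in untreated and 4.45, 4.26, 4.27 and 4.59 in treated arrays A to D. The groups overlapped, treated D was the highest, and the difference was 0.19 ± 0.11 (SE, adjusted p = 0.767). Collagenase MMP13 differed by 0.18 ± 0.094 and MMP8 by 0.12 ± 0.10 (SE), both in the lower 40% of signals. The stromelysin gene MMP3, whose product activates other MMP precursors, differed by 0.25 ± 0.11 (SE, adjusted p = 0.624), and MMP11 by 0.11 ± 0.10 (SE). Of the matrilysins, MMP26 differed by 0.16 ± 0.11 and MMP7 by 0.019 ± 0.093 (SE).

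Of the membrane-type MMPs, MMP16 had the smallest unadjusted p. It read 4.80, 6.05, 4.98 and 5.15 in untreated and 4.84, 5.23, 4.64 and 4.35 in treated arrays A to D. The groups overlapped, untreated B was the highest array, and the difference was -0.49 ± 0.26 (SE, adjusted p = 0.728, and 0.0944 with the block). In the block fits without 1 letter MMP16 passed in 1 of 4, the fit without A (-0.66, adjusted p = 0.00305). The part of the 3′ excess of treated A in this result was not tested. MMP17 differed by 0.23 ± 0.13 (SE). Of the remaining MMPs, MMP28 differed by 0.15 ± 0.094 (SE), and 2 of its 5 probe sets had positive differences. Its probe set 239272_at differed by -0.23 and was lower in 4 of 4 pairs, and the direction of MMP28 turned when its probe sets were averaged. The enamel protease gene MMP20 differed by -0.11 ± 0.089 (SE). A row of 9 MMP genes lies side by side on chromosome 11, MMP7, MMP20, MMP27, MMP8, MMP10, MMP1, MMP3, MMP12 and MMP13. In the limma fits 0 of the 9 passed, their differences ran from -0.11 to 0.25, and MMP1 was the 1 gene of the row in the upper 60% of signals.

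The genes around this system were listed by function, but with earlier results of these data known. They were counted in the same fit: 105 of 112 listed genes were measured. In all, 3 rose and 0 fell, and with the letter as a block 11 rose and 1 fell, with a median of 0.072 beside 0.0090 over all genes. The rates over all genes given above (0.354% and 0.222%, or 1.39% and 2.18% with the block) stand beside these counts for description only. Lists chosen with results known cannot be tested against those rates.

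The next list holds genes of proteases that activate MMP and ADAM precursors, with their receptor. Of 15 measured, 0 passed without the letters, where 3 had an unadjusted p under 0.05, and 2 rose with the block. The median was 0.12. PLAU, urokinase, which turns plasminogen into plasmin, read 10.06, 10.91, 10.55 and 10.86 in untreated and 10.86, 11.85, 11.96 and 11.92 in treated arrays A to D. Treated A was low and lay inside the untreated range, so the groups overlapped. The difference was 1.05 ± 0.26 (SE, adjusted p = 0.15, and 0.000398 with the block). Without treated A it was 1.32 with an adjusted p of 0.0106. FURIN, the convertase that cuts the propeptides of ADAMs and membrane-type MMPs, differed by 0.55 ± 0.12 (SE, adjusted p = 0.114, and 0.0354 with the block), and its groups did not overlap. Adjusted over all probe sets, FURIN lost the block call (0.0784). Without treated A the adjusted p of FURIN was 0.0382 and the difference 0.64. In the block fits without 1 letter PLAU passed in 4 of 4 and FURIN in 1 of 4, the fit without A. The part of the 3′ excess of treated A in these values was not tested.

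Another list holds genes of partners that carry ADAMs to the surface or mature them. Of 16 measured, 0 passed without the letters, 2 had an unadjusted p under 0.05, and 2 rose with the block. The median was 0.064. FRMD8, a binder of the iRhom proteins that stabilises the ADAM17 complex, read 6.93, 8.09, 8.30 and 8.34 in untreated and 8.60, 9.09, 9.51 and 9.52 in treated arrays A to D. The groups did not overlap, letter A was low in both, and the difference was 1.27 ± 0.31 (SE, adjusted p = 0.143, and 0.000205 with the block). All 4 of its probe sets had positive differences. TSPAN14, a tetraspanin that escorts ADAM10, differed by 0.53 ± 0.12 (SE, adjusted p = 0.115, and 0.0115 with the block), and its groups did not overlap. The sheddase genes themselves, ADAM10 and ADAM17, differed by -0.17 and -0.030 in their brightest probe sets, and ADAM10 by -0.48 in 214895_s_at. In the block fits without 1 letter FRMD8 passed in 4 of 4 and TSPAN14 in 2 of 4, those without A and without C.

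Of 26 measured genes whose proteins ADAMs shed, 2 rose and 0 fell in RNA signal, and 3 rose and 1 fell with the block. The median was 0.030. HBEGF, a ligand of the epidermal growth factor receptor, read 9.47, 9.41, 8.88 and 8.99 in untreated and 10.50, 10.67, 10.02 and 9.96 in treated arrays A to D. No treated array reached down to an untreated one, and the difference was 1.10 ± 0.19 (SE, adjusted p = 0.0296, or 0.0577 when adjusted over all probe sets), with 3 of 4 probe sets in that direction. CDH1, E-cadherin, read 4.19, 3.93, 4.05 and 4.14 in untreated and 5.22, 4.98, 4.92 and 4.78 in treated arrays A to D, a difference of 0.90 ± 0.11 (SE, adjusted p = 0.00579) in a dim probe set. The groups did not overlap, and the other CDH1 probe set differed by 0.069 ± 0.17 (SE). Leaving out 1 array at a time, the call held in 8 of 8 fits for CDH1 and in 3 of 8 for HBEGF, which lost it without untreated C or D and without treated B, C or D (adjusted p of up to 0.126). When all probe sets of a gene were averaged, HBEGF and CDH1 no longer passed, with adjusted p of 0.0802 and 0.149. JAG1, a Notch ligand, rose by 0.72 ± 0.087 (SE of the block fit, adjusted p = 0.00119), and EREG, epiregulin, was lower in 4 of 4 pairs and fell by 0.80 ± 0.12 (SE of the block fit, adjusted p = 0.00552). Without the letters their adjusted p were 0.154 and 0.443, and EREG passed there once treated A was left out (difference -1.12, adjusted p = 0.025). In the block fits without 1 letter JAG1 passed in 4 of 4 and EREG in 3 of 4, with an adjusted p of 0.0507 without C.

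Of 19 measured genes for matrix proteins that ADAMTS enzymes cut, 1 rose and 0 fell in RNA signal, and 3 rose with the block. The median was 0.15, with 16 of 19 positive beside 52.8% of all genes. Of the 19, 10 lay in the lower 40% of signals, where positive differences were more common over all genes. COL1A1, the main chain of type I collagen, read 7.16, 7.17, 7.10 and 7.03 in untreated and 8.22, 8.94, 9.11 and 8.97 in treated arrays A to D. Every treated array was above every untreated one, and the difference was 1.69 ± 0.17 (SE, adjusted p = 0.00179). All 5 probe sets had positive differences, but of unlike size. Beside 1.69 they were 1.47 ± 0.19, 0.19 ± 0.10, 0.15 ± 0.13 and 0.055 ± 0.11 (SE). Where the difference was 1.47 the groups did not overlap, and the limma adjusted p over all probe sets was 0.0163. Where it was 0.19, 0.15 or 0.055 the groups overlapped, and that adjusted p was 0.757 to 0.953. COL5A1, a chain of type V collagen, rose with the block (0.91, adjusted p = 0.000447) and not without it (adjusted p = 0.306). THBS1, thrombospondin, which also stands in the list of inhibitors and binding proteins, rose with the block (1.20, adjusted p = 0.000117), and without it had an adjusted p of 0.0884, or 0.0092 once treated A was left out. COL1A1 passed in 8 of 8 fits that leave out 1 array, and COL5A1 and THBS1 in 4 of 4 block fits without 1 letter.

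Of 16 measured genes of inhibitors and binding proteins other than TIMPs, 0 passed without the letters and 2 had an unadjusted p under 0.05. THBS1 and THBS2 rose with the block, the latter by 0.36 (adjusted p = 0.041). Adjusted over all probe sets, THBS2 lost the call (0.0812). It passed in 0 of the 4 block fits without 1 letter, with an adjusted p of 0.0587 to 0.157. The median was 0.093. Of 14 measured genes of related metalloproteases and ADAMTS-like proteins 0 passed in either limma fit, 1 had an unadjusted p under 0.05, and the median was 0.0089. The smallest p was that of BMP1, which trims the carboxyl end of procollagens, with a difference of 0.28 ± 0.10 (SE, adjusted p = 0.417, and 0.0971 with the block).

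**Figure D4:**
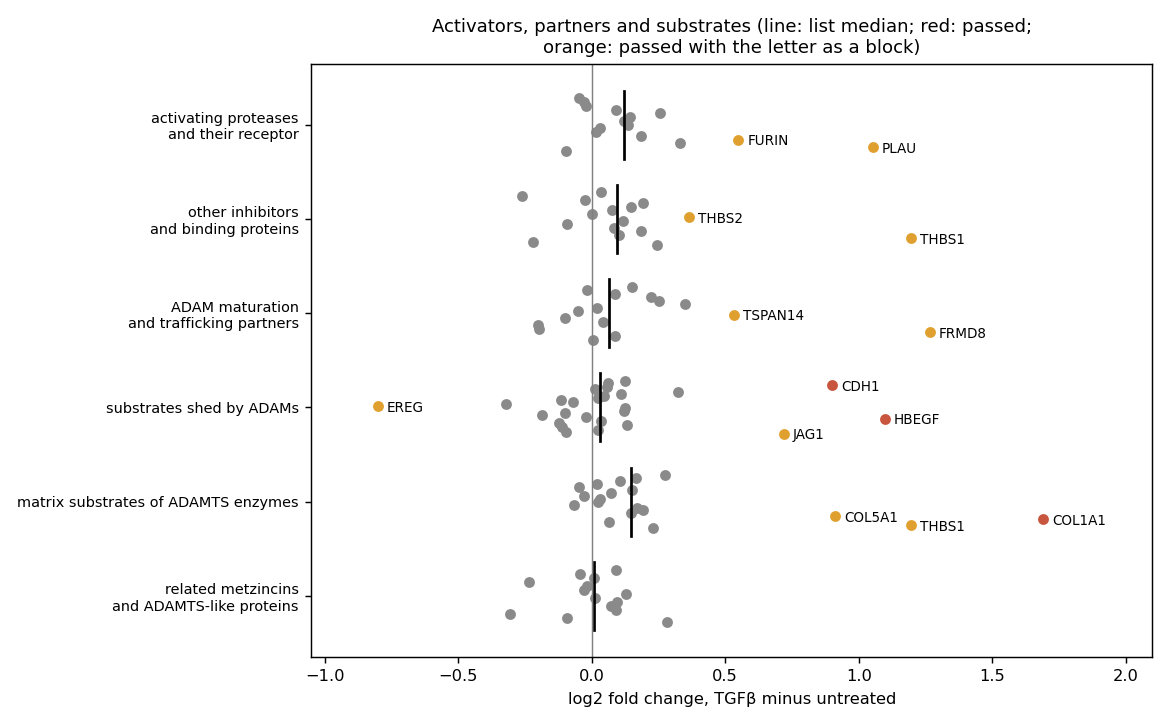
Log2 fold change, TGFβ minus untreated, of the measured genes of 6 lists around the metalloproteases, with 1 point a gene and a line at the list's median. Red marks CDH1, HBEGF and COL1A1, which passed without the letters, orange the genes that passed with the letter as a block, and most other points lie near 0.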

How the data were processed

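Expression was measured on 8 arrays, in total RNA. The deposited values are log2 signals; per the submitters' processing notes the authors used RMA, a method of background correction, between-array normalization and summary of probes. The base of the logarithm was inferred from the values; the version of RMA and whether other arrays were processed in the same run are not stated. Of 54675 probe sets 62 were controls. Of the other 54613, 41091 name 1 gene in the platform annotation of 2016, 1801 name several and 11721 none. This gave 19777 genes, each represented by the probe set with the highest mean; ADAM29 was left out because it shares its probe set with another gene. All 64 gene symbols matched RefSeq.

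The test of treated against untreated arrays was limma (version 3.58.1, R 4.3.3; two-sided, with lmFit, eBayes, Benjamini-Hochberg adjustment over all genes and a threshold of 0.05). Probe sets of ADAM19 and ADAMTS9 were also fitted over all probe sets and compared with an exact permutation test over arrays. The labels do not state a pairing. Deviations from the group means correlated between same-letter arrays at 0.49, 0.69, 0.34 and 0.30 for letters A to D. Untreated C correlated with treated D at 0.33, and untreated D with treated C at 0.31. The values thus pair the arrays of A and of B but do not tell C from D. A fit with the letter as a block is therefore given beside results it changes. No 2 arrays were duplicates. Alternatives were a filter on dim probe sets, centring, repeated quantile normalization, another prior, other choices of probe set, and leaving out arrays. Named genes were those passing in either fit, ADAM19, ADAMTS9, the TIMPs, 7 well-known proteases, the 2 smallest p of each role group, and list genes that passed, or the smallest p of a list. The members and lists were chosen with earlier results of these data known. The fits were tested on simulated data. Promoters came from RefSeq (GRCh38.p14). Plots used Python 3.11.15 and matplotlib 3.10.9.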

Additional observations from a re-analysis of the deposited data

Results flagged for a closer look

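In 5 of 86 groups of 4 arrays, 1 array stood apart from the other 3 by more than Dixon's critical gap (the gap over the range), a rule that chance alone meets in about 5% of groups. ADAM10 read 10.446 in untreated B, against 9.755 to 9.827 in the other untreated arrays. ADAM2 read 2.252 in treated C, against 2.359 to 2.374 in the other treated arrays. ADAMTS14 read 5.621 in treated D, against 5.361 to 5.382. ADAMTS16 read 4.655 in untreated C, against 5.162 to 5.213 in the other untreated arrays. PLAU read 10.856 in treated A, the array with the 3′ excess, against 11.845 to 11.961; the part of that excess in this value was not tested.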

How the results depend on the processing

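Adding the letter as a replicate block raised the genes called from 114 to 705, genes of this system from 1 to 3 higher and from 0 to 1 lower, and listed pathway genes from 3 to 11 higher and from 0 to 1 lower; it changed no other call among the named genes than those given in the report. When all probe sets of a gene were averaged 1 pathway gene was higher. Leaving out 1 array gave 46 to 232 genes called (232 without treated A), 0 to 1 of the system higher and 0 to 1 lower, and 2 to 6 pathway genes higher and 0 to 1 lower. Block fits without both arrays of a letter, chosen after seeing the data, gave 1304, 288, 321 and 356 genes (without A, B, C and D), 2 to 4 of the system higher, 0 to 3 lower, and 8, 9 or 11 pathway genes higher and 0 to 3 lower. The adjusted p of ADAM19 209765_at, fitted over probe sets, was 0.0443 in the upper 60% of signals, 0.047 with repeated quantile normalization (difference 1.33), 0.0372 with a trended and robust prior, 0.00345 with the block and 0.0263 over genes, the difference otherwise staying at 1.30. Leaving out 1 array gave 1.14 to 1.55 for it, -0.096 to 0.016 for 221128_at and, for ADAMTS9, -0.90 to -0.76 in 1554697_at, -0.68 to -0.40 in 226814_at, 0.076 to 0.21 in 233785_at and -0.095 to 0.094 in 220287_at. The ADAM19 probe set difference of 1.34 (1.12 to 1.64 leaving out 1 array) had an exact permutation p of 0.125, the smallest possible, when signs were turned within pairs, and 0.219 after adjustment. Signs turned for MMP2 (-0.0067) and MMP7 (-0.0045) with repeated quantile normalization, TIMP4 (-5e-04) with centring, MMP28, 0.15 as reported, with the mean of probe sets (-0.024) or without _x_at and _s_at probe sets (-0.23), and TIMP2 without those (-0.052). Leaving out 1 array, ADAM17 ran from -0.12 to 0.037, MMP1 from -0.093 to 0.045, MMP14 from -0.090 to 0.063, MMP2 from -0.063 to 0.077, MMP7 from -0.041 to 0.067, TIMP2 from -0.0062 to 0.061 and TIMP4 from -0.17 to 0.16. In the block fits without a letter the sign turned for MMP1 (0.051 without D), MMP14 (0.11 without A), MMP2 (-0.017 without A), MMP7 (-0.048 without D), TIMP2 (-0.0073 without C) and TIMP4 (-0.041 without C, -0.011 without D). The causes were not tested. With 4 arrays a group and no detection calls, dim probe sets limit what could be seen for the 34 genes in the lower 40% of signals.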
